A study of Solenopsis invicta with 52 samples.

Results

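The 24 genes described here were read strongly in the gasters of some fire ant workers and hardly at all in those of others of the same group. They were chosen from 16314 gene rows in counts of RNA sequencing reads from single workers of the fire ant Solenopsis invicta. Levels are in CPM, a gene's counts per 1000000 counts in genes of the same library. A gene is called on in a library at 1 CPM or more, off under 0.1 CPM, and between otherwise. Members had at least 4 of 24 gasters on, at least 4 off, at most 5 between and at least 2 SB/SB gasters on. One stretch of the gene list was outside the rule, which left 15307 rows. These conditions kept 35 genes, of which 11 were dropped because at least 4 of 28 brains were on, at least 4 off and at most 5 between. The gaster levels, and the brain levels as far as that step goes, therefore chose the genes and are given as a description.

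Every worker was a minor worker raised from a dark pupa that had been moved into a host colony of 250 workers built from another stock colony. Sampling followed 16 days after the move, at 14 to 16 days of age and 0.6 to 0.9 mg of body mass. The mBB and mpBB workers were SB/SB and born in monogyne colonies, and mBB had monogyne hosts, each with 1 SB/SB queen, while mpBB had polygyne hosts. The pBB workers (SB/SB) and the pBL workers (SB/Sb) were born in polygyne colonies and had polygyne hosts. Polygyne hosts had egg-laying SB/Sb queens whose mating status was unknown. All workers, mBB included, were thus transplanted, and host workers were told apart by a cut middle leg. Each group had 6 gaster and 7 brain libraries, 52 in all from 32 workers, and 20 workers, 5 in each group, gave both tissues. A stock colony served once as donor or host in a treatment, so replicates of a group came from separate colonies.

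The gaster is the part of the abdomen behind the waist and holds the crop, midgut, hindgut, fat body and venom gland. SB and Sb are haplotypes of a supergene, a set of genes inherited together, and a colony with several queens contains workers that carry Sb. Workers of monogyne colonies carry SB alone. In whole gasters, fewer cells of a type and less RNA per cell cannot be told apart. The files give identifiers without gene names, and 0 of 16314 matched the table of named genes used here, so no function, protein or promoter could be given and the tissue could not be checked against marker genes.

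Gaster libraries held 30.01 to 77.3 M counts in genes and brain libraries 14.5 to 70.04 M. At these depths 0.1 CPM corresponds to 3.0 to 7.73 counts in a gaster. Gaster pBB replicate 1 stood apart, with 30.01 M counts and 53.4% of its reads unmapped, against at most 28.8% in the other gasters. The other gasters held at least 46.3 M counts. Of the brain libraries 4 stood apart by their correlation with the others, mBB replicate 4 and pBL replicates 2, 4 and 6. No 2 libraries held identical counts.

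Across the 24 genes and 24 gasters there were 576 values, of which 322 were on, 197 off and 57 between. Of the off values, 100 (50.8%) were 0 counts, and the highest off count was 6, while the lowest on count was 35. The median level where a gene was on was 3.39 CPM, and 57 on values reached 10 CPM. A gene was on in 5 to 20 gasters, 16 genes were on in more gasters than they were off, and 8 the other way. Among the 24 genes, 22 were on in at least 1 gaster of every group, 14 were off in at least 1 of every group, and 12 were both. On and off workers thus occurred side by side within groups, and in 1 worker 8 to 17 genes were on, with a median of 13. The medians were 12.5 in mBB, 13.5 in mpBB, 13 in pBB and 15 in pBL, with ranges that overlapped.

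**Figure D1:**
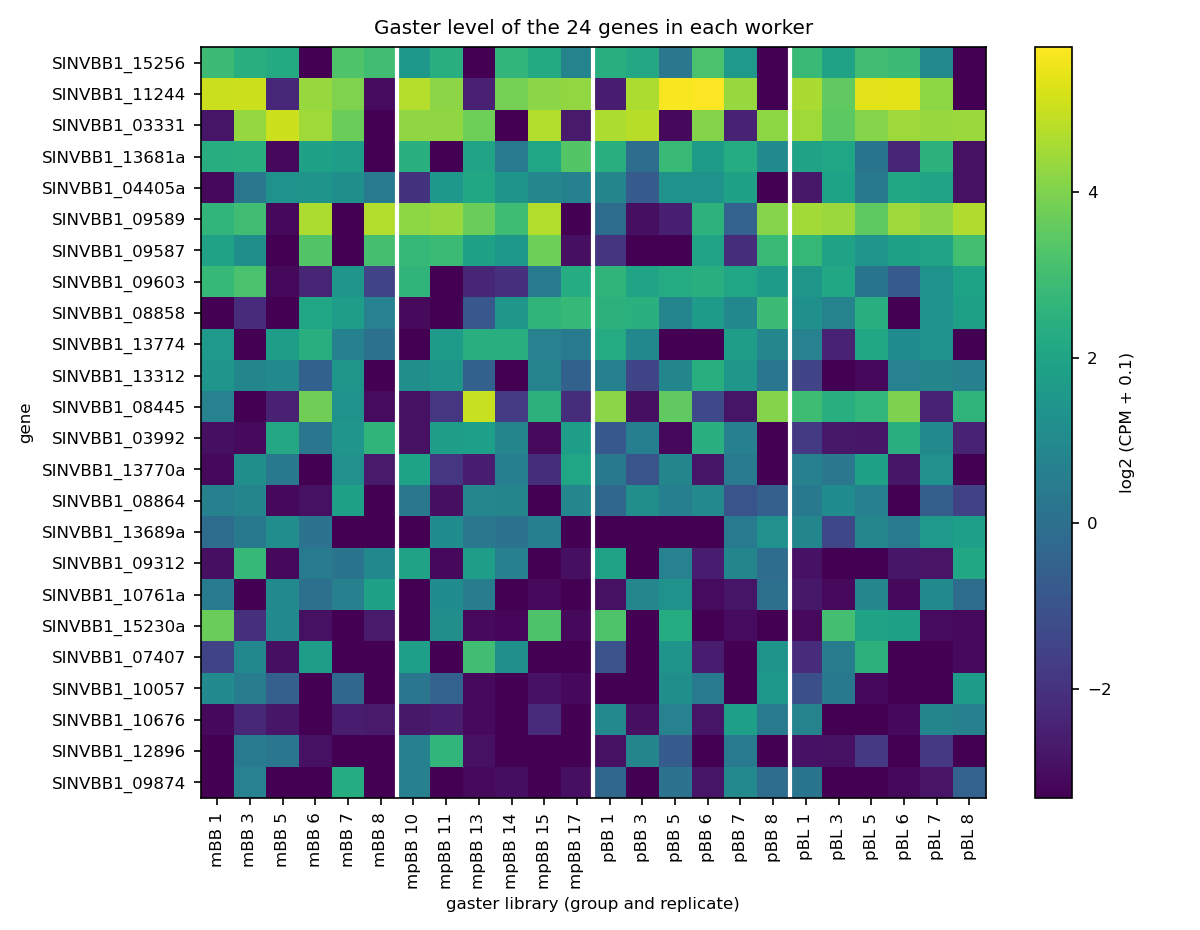
Gaster level of each of the 24 genes (rows, ordered by the number of gasters on) in each of the 24 gasters (columns, by group and replicate), as log2 of CPM plus 0.1. Bright and dark cells stand side by side within every group, between 8 and 17 genes are on per gaster, and the rows have different patterns apart from SINVBB1_09589 and SINVBB1_09587.

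The largest contrasts between workers were those of SINVBB1_11244 and SINVBB1_03331. SINVBB1_11244 reached 53.8 CPM. Its lowest, median and highest gaster levels were 0.019, 18.1 and 32.9 CPM in mBB, 0.0797, 17.9 and 26.4 CPM in mpBB, 0, 22.7 and 53.8 CPM in pBB, and 0, 21.3 and 41.5 CPM in pBL. It was on in 18 gasters, at 11.6 CPM or more, off in 5 and between in 1, at 0.108 CPM in mBB replicate 5, so that no gaster lay between 0.108 and 11.6 CPM. The 5 off gasters were mBB replicate 8, mpBB replicate 13, pBB replicates 1 and 8 and pBL replicate 8. SINVBB1_03331 was on in 18 gasters, at 10.9 to 33.2 CPM, and off in the other 6, at no more than 0.0864 CPM, with no gaster between. Its lowest, median and highest levels were 0, 16.6 and 33.2 CPM in mBB, 0, 16.1 and 26.0 CPM in mpBB, 0.0145, 17.6 and 27.2 CPM in pBB, and 10.9, 20.8 and 21.6 CPM in pBL. Every pBL gaster was on, and each SB/SB group held 2 that were off.

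SINVBB1_09589 and SINVBB1_08445 came next by their highest level. SINVBB1_09589 reached 25.95 CPM, with 17 gasters on and 5 off. Its lowest, median and highest levels were 0, 6.93 and 25.9 CPM in mBB, 0, 15.8 and 25.95 CPM in mpBB, 0.0288, 0.73 and 17.3 CPM in pBB, and 11.2, 21.3 and 25.4 CPM in pBL. Only pBL had every gaster on, and the ranges of all 4 groups overlapped. SINVBB1_08445 was more graded, with 13 gasters on, 7 off and 4 between. Its lowest, median and highest levels were 0, 0.8 and 13.5 CPM in mBB, 0.0334, 0.187 and 31.4 CPM in mpBB, 0.0288, 5.88 and 18.1 CPM in pBB, and 0.0821, 6.09 and 15.4 CPM in pBL. The fifth gene by this order, SINVBB1_09587, reached 13.3 CPM and is taken up with SINVBB1_09589 below, and SINVBB1_15230a, at 13.1 CPM, was the sixth and last to pass 10 CPM.

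The most even splits of on and off were those of SINVBB1_09312, SINVBB1_10761a, SINVBB1_07407, SINVBB1_03992 and SINVBB1_10057. SINVBB1_09312 was on in 11 gasters, at 1.03 to 6.59 CPM, and off in 12. In pBL 5 of its values lay at 0 to 0.0463 CPM and the sixth, replicate 8, at 4.18 CPM, whereas mBB, mpBB and pBB were mixed. SINVBB1_10761a was on in 10 gasters, at 1.197 to 3.58 CPM, and off in 11. SINVBB1_07407 was on in 9 gasters and reached 7.67 CPM, SINVBB1_03992 in 13 and 6.07 CPM, and SINVBB1_10057 in 8 and 3.09 CPM. All 5 were both on and off in every group.

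The rule's limit of 5 gasters between separated close neighbours. Just inside it were SINVBB1_13312, with 15 on, 4 off and 5 between, and SINVBB1_08864, with 13 on, 6 off and 5 between. Just outside were SINVBB1_05213, with 7 on, 11 off and 6 between, and SINVBB1_04166, with 8 on, 10 off and 6 between.

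The brains were compared next, since the rule asked only that a gene not be clearly on or off among brains. The brain libraries came from a kit that does not mark strand, so levels were not compared between the tissues, only their order over workers. The 24 genes were of several kinds in brain, and the data go against calling them on or off in the gaster alone. In 6 genes every one of the 28 brains was under 1 CPM, in 4 genes 1 to 3 brains were on, and in 6 genes at least 4 brains were on and at most 2 off. In 5 genes at least 4 brains were on and 3 were off, 1 short of the number that would have dropped them. In the last 3 genes, SINVBB1_10761a, SINVBB1_13770a and SINVBB1_15230a, at least 4 brains were on and at least 4 off, and they stayed because 8 to 11 brains lay between. The median brain level was 1 CPM or more in 10 genes, 0.1 to 1 CPM in 7 and under 0.1 CPM in 7. It was highest for SINVBB1_09587, at 37.9 CPM, SINVBB1_09589, at 18.2 CPM, and SINVBB1_13681a, at 9.94 CPM.

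In the 20 workers with both tissues, the brain ordered workers like the gaster in 9 of the 24 genes, in the sense that every brain of a gaster-on worker was above every brain of a gaster-off worker. Over all other genes set against the same 24 divisions of the workers, this held for 0.124% of gene and division pairs (471 of 380712). The 9 include SINVBB1_09589 and SINVBB1_09587, which divide the workers in the same way and are not separate cases. The share over other genes differed between divisions. It was 2.06% for that of SINVBB1_04405a, 0.366% for SINVBB1_15256 and 0.0756% for SINVBB1_11244, each with 2 off workers, and 0% for SINVBB1_03331, with 4, and SINVBB1_09312, with 11. For SINVBB1_03331 the brain levels were 2.79 to 9.89 CPM in 16 gaster-on workers and 0.155 to 0.861 CPM in 4 gaster-off workers. For SINVBB1_13681a they were 5.23 to 21.5 CPM in 16 workers and 0 to 0.0528 CPM in 3. For SINVBB1_09589 they were 10.4 to 64.6 CPM in 14 workers and 0 to 0.207 CPM in 4. In each of these 3 genes a gap separated the brains of gaster-on workers from those of gaster-off workers, although brain SINVBB1_03331 was never under 0.1 CPM. Workers with the gaster between on and off for a gene were left out of these comparisons. For SINVBB1_09589 they were pBB replicates 1 and 7, with brains at 0.708 and 0.585 CPM, inside the gap.

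The other 6 genes of this kind spanned a wide range of levels. SINVBB1_09587 had 17.8 to 97.1 CPM in brains of gaster-on workers and 0 to 0.155 CPM in those of gaster-off workers. SINVBB1_13770a had 1.54 to 3.85 CPM in 12 workers and 0 to 0.177 CPM in 5. SINVBB1_13312 had 1.48 to 13.8 CPM in 13 workers and 0 to 0.157 CPM in 3. SINVBB1_04405a had 1.18 to 6.40 CPM in 16 workers and 0.044 to 0.0731 CPM in 2. In SINVBB1_09312 and SINVBB1_15256 the separation lay at the bottom of the range. Brain SINVBB1_09312 was 0.0672 to 0.589 CPM in 9 gaster-on workers and 0 to 0.0528 CPM in 11 gaster-off workers, and brain SINVBB1_15256 was 0.0393 to 1.38 CPM in 18 workers and 0 in 2. SINVBB1_10761a missed the criterion by 1 worker: 8 of 9 gaster-on brains were above every gaster-off brain, at up to 5.26 CPM against at most 0.295 CPM. The order was also kept in part elsewhere. The gaster-on brains above every gaster-off brain were 4 of 6 for SINVBB1_12896, 7 of 9 for SINVBB1_15230a and 11 of 14 for SINVBB1_09603. For SINVBB1_13774 they were 13 of 15, with every gaster-off brain at 0.

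**Figure D2:**
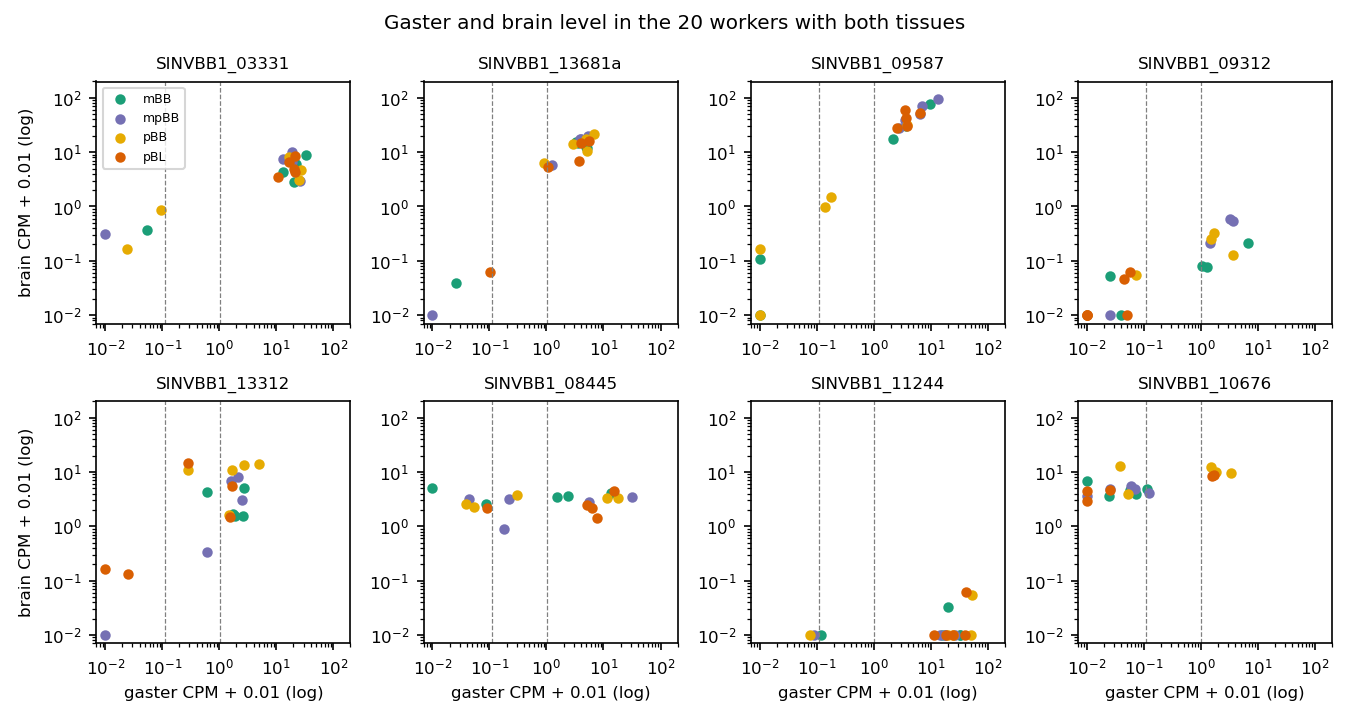
Brain level against gaster level of the same worker, both as CPM plus 0.01 on log axes, for 8 genes and the 20 workers with both tissues, coloured by group, with dashed lines at gaster levels of 0.1 and 1 CPM. For SINVBB1_03331 and SINVBB1_13681a the workers form matching low and high sets in both tissues. SINVBB1_09587 has such sets too, with pBB replicates 1 and 7 between them in both tissues, at 1.50 and 0.964 CPM in brain. Every brain in the plot was at 0.0528 CPM or less for SINVBB1_11244, whereas SINVBB1_08445 and SINVBB1_10676 were read in every brain.

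Other genes did not keep the order. SINVBB1_08445 was read in all of the plotted brains, at 1.39 to 4.44 CPM in 11 gaster-on workers and 2.17 to 5.13 CPM in 6 gaster-off workers, so workers with hardly any SINVBB1_08445 in the gaster had it in the brain. SINVBB1_09874 had 0.219 to 1.69 CPM in brains of gaster-on workers and 0.558 to 1.40 CPM in those of gaster-off workers, and in SINVBB1_08864 and SINVBB1_10057 the ranges overlapped as widely. SINVBB1_11244, the gene with the highest gaster level, had a brain median of 0 CPM and a highest brain of 0.156 CPM, so it was hardly read there in any worker. SINVBB1_08858, SINVBB1_13774, SINVBB1_13689a and SINVBB1_07407 also stayed under 1 CPM in every brain.

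Counted over genes and workers together, 218 of 280 gaster-on pairs (77.9%, exact binomial 95% interval 72.5% to 82.6%) had a brain at 0.1 CPM or more, against 83 of 154 gaster-off pairs (53.9%). At 1 CPM the shares were 53.9% and 16.9%. The pairs share workers and genes, and the interval covers counting error only. Genes also contributed unequal numbers of on and off pairs, so the shares differ in their mix of genes as well as in worker state.

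Some rows close to a member in the gene list shared its pattern. The row order is the same in every file, but the labels do not say what it stands for. Of 125 pairs of a member and another gene at most 3 rows away, 7 (5.6%) had every gaster with the member on above every gaster with it off, against 0.0139% (50 of 359280) over all pairs of members and other genes. The 7 count the pair of SINVBB1_09589 and SINVBB1_09587 in both directions. Whether these rows share reads or a transcript was not tested. SINVBB1_09589 and SINVBB1_09587 are both members in adjacent rows and were in the same state in 24 of 24 gasters. They were the only 1 of 276 pairs of members with a Pearson correlation of at least 0.9 over the gasters, so no 3 members shared a pattern at that level. SINVBB1_09587 was at 2.17 to 13.3 CPM where both were on and at 0 to 0.0285 CPM where both were off, and 22.2% of its strand counts lay on the opposite strand, with 15 to 162 such counts in on gasters and 0 or 1 in off gasters.

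The remaining near rows followed at lower levels and without being on or off themselves. Where SINVBB1_10761a was on, the row before it, SINVBB1_15434, was at 0.4 to 1.19 CPM, against 0 to 0.186 CPM where it was off. In brain, SINVBB1_15434 was at 1.49 to 3.87 CPM in the 13 brains with SINVBB1_10761a on and at 0.135 to 0.42 CPM in the 7 with it off, without overlap. Where SINVBB1_09312 was on, SINVBB1_12716a was at 0.719 to 2.39 CPM, against 0 to 0.43 CPM, and where SINVBB1_08864 was on, SINVBB1_01183 was at 1.27 to 2.92 CPM, against 0.309 to 1.07 CPM. SINVBB1_08858 and SINVBB1_12896 each had such a follower as well, SINVBB1_08865 and SINVBB1_08443. The only near row that went the other way was SINVBB1_04527, at 0.806 to 2.41 CPM where SINVBB1_15256 was on and 2.73 to 3.40 CPM where it was off. In brain SINVBB1_04527 was at 84.2 to 147.9 CPM in the 3 brains with SINVBB1_15256 on and 98.2 to 137.3 CPM in the 6 with it off, so the ranges overlapped. SINVBB1_01183 was at 1.23 to 2.02 CPM in the 2 brains with SINVBB1_08864 on and 0.0295 to 0.423 CPM in the 5 with it off. SINVBB1_08443 was at 0.457 to 1.49 CPM in the 4 brains with SINVBB1_12896 on and at 0 in the 1 with it off. SINVBB1_09312 and SINVBB1_08858 were on in no brain.

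SINVBB1_12896 and SINVBB1_08445 are adjacent members that were never on in the same gaster. In the 6 gasters with SINVBB1_12896 on, SINVBB1_08445 was at 0 to 0.168 CPM, and in the 13 with SINVBB1_08445 on, SINVBB1_12896 was at 0 to 0.521 CPM. In 5 gasters neither was on. This relation was chosen after its values were seen and was given no test.

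Identifiers of 6 members (25%) end in a letter, against 9.52% of all identifiers (1553). The labels do not say what the letter marks. There are 16 other identifiers with the same number as one of these 6, of which 6 never reached 0.1 CPM in a gaster and 5 reached 1 CPM. SINVBB1_04405b, which lies 6424 rows from SINVBB1_04405a, was highest where SINVBB1_04405a was off. SINVBB1_04405b was at 2.32 to 3.58 CPM in the 4 gasters with SINVBB1_04405a off and at 0.0159 to 1.90 CPM in the 18 with it on, without overlap. Both were on in 7 of these 18. With only 4 gasters off, this division fully separated 14 genes, SINVBB1_04405b among them. In brain, SINVBB1_04405b was at 3.04 to 8.17 CPM in the 3 brains with SINVBB1_04405a off and at 0.0368 to 4.91 CPM in the 22 with it on, so those ranges overlapped.

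Of the other 4 that reached 1 CPM, 2 were higher in the workers with the member on. SINVBB1_10761f was at 0.369 to 3.03 CPM in the 10 gasters with SINVBB1_10761a on and at 0 to 0.414 CPM in the 11 with it off, and 9 of the 10 were above every off gaster. In brain, SINVBB1_10761f was at 0.132 to 5.96 CPM in the 13 brains with SINVBB1_10761a on and had 0 counts in the 7 with it off. SINVBB1_15230e was at 3.35 to 21.2 CPM where SINVBB1_15230a was on and at 0.331 to 3.44 CPM where it was off. Brain SINVBB1_15230e was at 1.15 to 2.67 CPM in the 6 brains with SINVBB1_15230a on and 0 to 1.19 CPM in the 11 with it off. In the 11 brains with SINVBB1_15230a between, SINVBB1_15230e was at 0.367 to 18.5 CPM, so its highest brain level was not in the on state. SINVBB1_15230b was read at 15.0 to 70.5 CPM in every gaster whatever the state of SINVBB1_15230a, and SINVBB1_10761e was at 1 CPM or more in 1 gaster with SINVBB1_10761a on and in 2 with it off, where it reached 2.60 CPM. How reads were divided among identifiers with a shared number was not tested, and reads that map to several places are not in these counts, so levels of near-identical copies are uncertain.

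**Figure D3:**
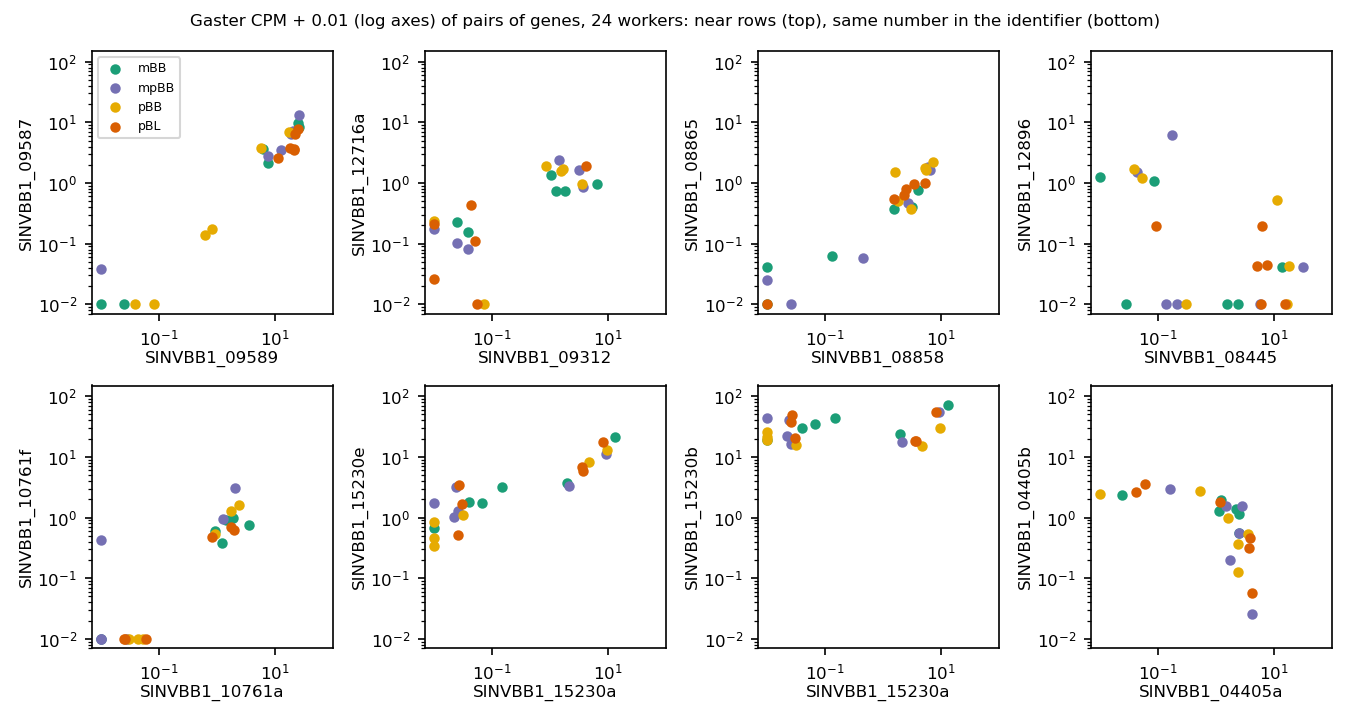
Gaster levels of 8 pairs of genes in the 24 gasters, as CPM plus 0.01 on log axes, coloured by group; the upper row holds pairs near in row order and the lower row pairs whose identifiers share a number. SINVBB1_09589 and SINVBB1_09587 share their state in 24 of 24 gasters, SINVBB1_08445 and SINVBB1_12896 are never on together, and SINVBB1_04405b is highest where SINVBB1_04405a is off.

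Of the other genes that followed a member, the closest in row order was SINVBB1_10130, 34 rows from SINVBB1_03331, at 0.164 to 14.7 CPM where SINVBB1_03331 was on and 0 to 0.0887 CPM where it was off. The next lay 98 rows or more away. Of the 24 members, 17 had at least 1 gene fully separated by their on and off gasters, in either direction, 12 had exactly 1 and 7 had none. SINVBB1_09603 stood out, with 102 such genes, of which 15 were higher and the others lower where it was on, and only 4 gasters with it off. SINVBB1_03992 had 15 and SINVBB1_04405a 14. Counts on the opposite strand were under 3% of the strand counts in 21 members. The exceptions were SINVBB1_09587, at 22.2%, SINVBB1_10676, at 7.11%, and SINVBB1_10057, at 6.87%.

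The study's own comparisons ask whether genotype (pBL against pBB), host colony (mpBB against mBB), colony of origin (pBB against mpBB) or social form as a whole (pBB against mBB) changes expression. All 24 members passed the filter on low counts, and each was tested among 11574 genes. By edgeR's quasi-likelihood test, with Benjamini-Hochberg adjusted p under 0.05 as the call, 0 members were called in each comparison. Over all genes tested, 0.596% were called for genotype, 0% for host colony, 0% for colony of origin and 0.0605% for social form, and 0.847% differed among any of the 4 groups. Shares over all genes, here and in the fits below, include the stretch of the gene list from which no member could come. They were not computed without it. At an unadjusted p under 0.05 there were 0 members for genotype, 0 for host colony, 1 for colony of origin, 1 for social form and 1 for any group, the same gene each time, SINVBB1_10676. The shares of all genes at that p were 5.24%, 4.58%, 2.72%, 13.01% and 7.98%. This fit took no account of the replicate numbers that pBB and pBL share. With the number as a block in edgeR, 0 of 20 members tested were called for genotype. In that fit 6 of the 20 had an unadjusted p under 0.05, a larger share than the 7.61% of all genes (848 of 11150). With DESeq2 the member calls were 0, 0, 0, 1 and 1, again SINVBB1_10676, against 0.933%, 0%, 0.0518%, 2.38% and 2.21% of all genes.

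The spread between workers was large beside the differences between groups. The median biological coefficient of variation of the members, edgeR's measure of spread within groups, was 1.55 (1.15 to 2.34), against 0.232 over all genes tested, a property that the rule selected. The median absolute log2 fold change for genotype was 0.588 for members and 0.114 over all genes. The smallest p for genotype was that of SINVBB1_09589, whose values by group are given above and whose log2 fold change was 2.22 ± 1.25 (SE, n = 6 and 6, adjusted p = 0.9997 by edgeR). For host colony it was SINVBB1_09874, at 0 to 4.77 CPM in mBB and 0 to 1.45 CPM in mpBB, with a log2 fold change of -2.13 ± 1.61 (SE, n = 6 and 6, adjusted p = 0.9999 by edgeR). Neither difference was called, and the ranges overlapped. With the replicate number as a block the genotype value of SINVBB1_09589 was 4.13 (adjusted p = 0.273 by edgeR). The host value of SINVBB1_09874 was -0.11 among individuals numbered under 140 and -6.64 among those over 140, and neither was called.

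SINVBB1_10676 was the member whose states lined up best with a label. It was on in 0 of 6 mBB and 0 of 6 mpBB gasters, in 4 of 6 pBB and in 3 of 6 pBL gasters. Its lowest, median and highest levels were 0, 0.0518 and 0.104 CPM in mBB, 0, 0.033 and 0.112 CPM in mpBB, 0.0288, 1.36 and 3.37 CPM in pBB, and 0, 0.727 and 1.66 CPM in pBL. All on gasters came from workers of polygyne origin, and the off gasters of those groups lay in the range of the monogyne-origin groups. The log2 fold change was 5.07 ± 1.33 (SE) for colony of origin, with an adjusted p of 0.9999 by edgeR and 0.0549 by DESeq2. For social form it was 4.77 ± 1.30 (SE), with an adjusted p of 0.102 by edgeR and 0.0123 by DESeq2. The test of any group gave an adjusted p of 0.0641 by edgeR and 0.00545 by DESeq2, and without gaster pBB replicate 1 the edgeR value was 0.106. The call thus depended on the tool. SINVBB1_10676 was on in all 28 brains, with medians of 4.85 CPM in mBB, 4.81 in mpBB, 10.2 CPM in pBB and 8.59 CPM in pBL and overlapping ranges. In brain its log2 fold change for colony of origin was 0.55 ± 0.42 (SE, n = 7 and 7) and was not called (adjusted p = 0.9999 by edgeR, unadjusted 0.203).

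**Figure D4:**
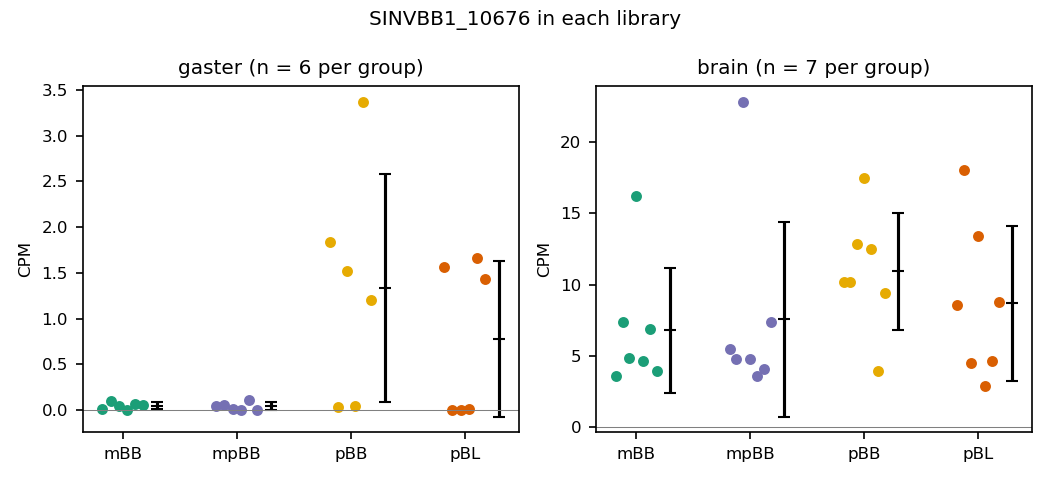
CPM of SINVBB1_10676 in each gaster (left, n = 6 per group) and each brain (right, n = 7 per group), with mean and SD beside the points. In the gaster no worker of monogyne origin (mBB, mpBB) exceeded 0.112 CPM and 7 workers of polygyne origin were above 1 CPM, whereas all 28 brains were at 2.899 CPM or more.

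In brain, 17 of the 24 genes passed the filter and 0 were called in the same 4 comparisons by edgeR, against 0.516% of genes called for genotype and 0% for the others. At an unadjusted p under 0.05 there were 0 of the 17, against 3.54% of all genes for genotype, 2.27% for host colony, 1.57% for colony of origin and 4.14% for social form. The brain test of any group also called 0 of the 17, against 0.566% of all genes, and without the filter 1 of 24, against 0.545%. Without the filter all 24 could be tested and 1, SINVBB1_13689a, was called for genotype, against 0.451% of all genes. Its lowest, median and highest brain levels were 0.117, 0.298 and 0.589 CPM in pBL, 0, 0 and 0.0441 CPM in pBB, 0, 0 and 0.088 CPM in mBB, and 0, 0.0229 and 0.136 CPM in mpBB. All 7 SB/Sb brains were above all 7 pBB brains, and 1 of them lay within the range of mpBB. The fitted log2 fold change was 5.16 ± 0.92 (SE, adjusted p = 0.00171 by edgeR), a value that depends on the prior count because 6 of 7 pBB brains had 0 counts. Without the 4 brain libraries that stood apart it was 5.39 ± 0.92 (SE, adjusted p = 0.00182 by edgeR), with 4 pBL brains at 0.256 to 0.589 CPM. In the gaster SINVBB1_13689a was on in 2 mBB, 4 mpBB, 2 pBB and 5 pBL workers, with 4 pBB gasters at 0 counts and a lowest pBL gaster of 0.294 CPM, and its log2 fold change for genotype was 1.55 ± 1.29 (SE, adjusted p = 0.9997 by edgeR).

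Pairs of workers were also compared over the 24 genes, counting only genes that were on or off in both. The share of genes in the same state had a median of 57.9% over 276 pairs and a range of 22.2% to 95%. Within groups the median was 55% (60 pairs) and between groups 59.1% (216 pairs), with overlapping ranges (31.3% to 86.4% and 22.2% to 95%). The closest pair was mBB replicate 3 and mpBB replicate 10, alike in 19 of 20 genes (95%), and mBB replicate 6 with mpBB replicate 13, mBB replicate 5 with mpBB replicate 11, and mpBB replicate 11 with pBL replicate 6 were each alike in 18 of 20 (90%). Brain libraries were correlated over the 300 most variable other genes, a correlation across genes, which are not independent. The pair with 95% also had the highest brain correlation of 190 pairs, 0.62, and mBB replicate 6 with mpBB replicate 13 the second, 0.58, against a median of -0.04. For mBB replicate 5 with mpBB replicate 11 it was 0.27, and for mpBB replicate 11 with pBL replicate 6 it was -0.09. Over the 6 pairs with at least 85% of states alike and both brains, the median was 0.29. The only other negative value among them was -0.13, for mpBB replicate 15 with pBL replicate 6. Brain pBL replicate 6 was among the libraries that stood apart, so both negative values rest on that library. These pairs were singled out after their values were seen. The labels do not name the donor colony of a worker, and whether close pairs shared one was not tested.

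**Figure D5:**
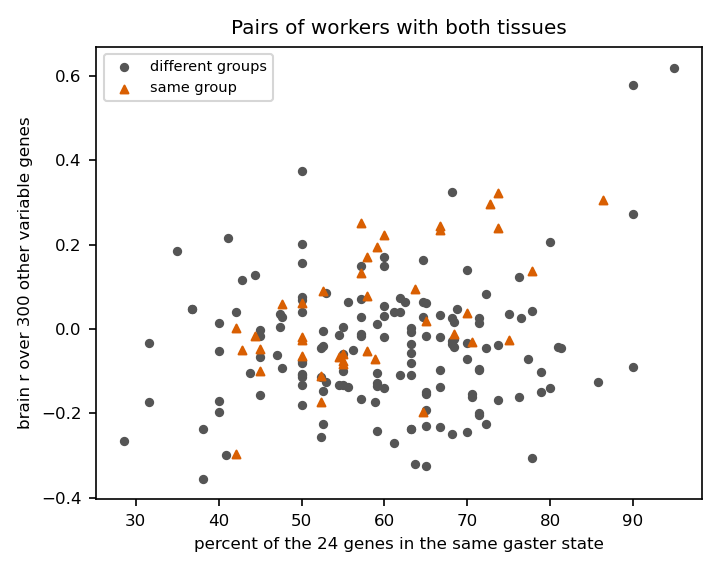
Each point is 1 of the 190 pairs of workers with both tissues, by the percent of the 24 genes in the same gaster state (horizontal) and the correlation of their brain libraries across the 300 most variable other genes (vertical), with pairs of the same group as triangles. The median brain correlation is -0.04, and 2 pairs, both of mBB with mpBB, lie apart at 0.58 and 0.62 with 90% and 95% of states alike.

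Replicate numbers are shared by mBB, pBB and pBL. Same-numbered gasters of pBB and pBL were in the same state for a mean of 68.1% of genes (47.4% to 85%, 6 pairs). In 30 pairs with different numbers the mean was 57.03% (28.6% to 81.3%). For mBB and pBL the means were 63.3% and 55.2%. For mBB and pBB they went the other way, 50.4% and 56.8%, with medians of 44.1% and 60%. The ranges overlapped in all 3 pairs of groups.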

How the data were processed

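The submitters' processing notes name Trim Galore, STAR and edgeR. Genome build, annotation and tool versions are not given in the sources used. The deposited files hold raw counts per gene, unstranded and for each strand. Brains were prepared with a SMARTer low-input kit without strand information and gasters with the KAPA stranded kit, per the labels' protocols, so the authors' unstranded count column was used for brain and the reverse-strand column for gaster. The 4 rows that name no gene were left out of library sizes. Unmapped, multimapped and ambiguous reads are therefore in no level.

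CPM is the count per 1000000 counts in genes. Counts were tested in R 4.3.3 with edgeR 4.0.16 (filter by group, TMM scaling, quasi-likelihood fit of all 24 gasters without covariates, p adjusted by Benjamini-Hochberg over the whole table), and standard errors come from the F statistic. Tables were made with Python 3.11.15, NumPy 2.4.6 and pandas 2.3.3. The tests were checked on simulated data, in which the changed genes were not chosen for a large spread. That check does not show how well a group difference could be called in genes as variable as the members. Alternatives were DESeq2 1.42.0, RLE factors, other filters, the unstranded column, the compared groups alone, a covariate or a split at individual number 140, and leaving out gaster pBB replicate 1. The fits in brain and the alternatives for the count of genes ordered alike in brain were added after the data were seen.

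The members, lists and tests were chosen with earlier results of these data known. Genes were named by highest CPM (5), evenness of on and off (5), smallest p per comparison, highest brain median (3), shared pattern, row neighbours and distance to the rule's limit (2 on each side), and other members where a value set them apart, chosen after their values were seen.

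Replicate numbers were checked for pairing: same-numbered pBB and pBL brains deviated together in all 7 pairs (correlation 0.143 to 0.497), which was taken to pair them and, through mostly the same individuals, the gasters (0.0928 to 0.494). Same-numbered mBB and pBB libraries also deviated together, less strongly, in all 7 brain pairs (0.0634 to 0.357) and all 6 gaster pairs (0.0438 to 0.289). The labels do not say what a shared number marks.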

Additional observations from a re-analysis of the deposited data

Results flagged for a closer look

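Of 104 groups of values examined, 96 were the 6 gasters of a group for 1 gene, and 16 held a worker far from the other 5. Chance alone puts about 1 in 20 groups in this position when values follow a normal distribution. These genes were chosen for having 2 separate levels, so most of these are single workers in the rarer state.

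Single low workers stood apart in several groups. For SINVBB1_15256 these were mBB replicate 6, mpBB replicate 13 and pBL replicate 8, each at 0 CPM. For SINVBB1_11244 they were mpBB replicate 13, at 0.0797 CPM, and pBL replicate 8, at 0 CPM. mpBB replicate 17 was at 0 CPM for SINVBB1_09589 and 0.0285 CPM for SINVBB1_09587. SINVBB1_04405a was at 0.0148 CPM in mBB replicate 1 and, between on and off, at 0.15 CPM in mpBB replicate 10. SINVBB1_08445 in pBL replicate 7 was at 0.0821 CPM. Values of 0 CPM were also found for SINVBB1_08858 in pBL replicate 6, SINVBB1_10761a in mBB replicate 3 and SINVBB1_13774 in mpBB replicate 10.

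Single high workers were pBL replicate 8 for SINVBB1_09312, at 4.18 CPM, and mpBB replicate 10 for SINVBB1_09874, at 1.45 CPM. SINVBB1_03331 in pBL replicate 3, at 10.9 CPM, was the lowest of 6 gasters that were all on.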

How the results depend on the processing

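The rule gave 24 genes, and 19 to 35 with the unstranded column, 0.05 CPM for off, TMM-scaled CPM, without gaster pBB replicate 1 or without the brain step. It gave 11 with 2 CPM for on (10 of them among the 24) and 15 with at most 2 gasters between (13 among the 24). The share of gaster-on pairs with a brain signal was 77.9% at 0.1 CPM and 53.9% at 1 CPM. The count of genes ordered alike in brain was 9, and 8 or 9 in 3 alternatives. No member was called in the gaster under any edgeR setting. DESeq2 called 1 for social form, SINVBB1_10676 at a log2 fold change of 4.81, and 1 for any group. The unfiltered brain fit called 1 for genotype and 1 for any group, SINVBB1_13689a. The log2 fold change of SINVBB1_09874 for host colony, -2.13 in the gaster, was 0.0551 and 0.0526 in brain with and without the filter, and none of the 3 values was called. The fold changes of SINVBB1_09589 for genotype and of SINVBB1_10676 for colony of origin and social form kept their direction in each alternative that tested them. Row neighbours, shared-number pairs and other fold changes were given no alternative. The causes of these differences were not tested.

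With the replicate number as a block for pBL against pBB, 0 members were called of 20 tested, against 63 of 11150 genes, and 6 had an unadjusted p under 0.05, against 7.61% of all genes. The same 2 groups without the pairing gave 2 members at that p, against 4.74% of all genes. For pBB against mBB, whose same-numbered libraries also deviated together, the block gave 0 called members of 21 tested, against 2 of 11160 genes. At an unadjusted p under 0.05 by edgeR it gave 0 members, against 16.2% of all genes. For colony of origin and social form SINVBB1_10676 was not tested in the fits of the compared groups alone, where it missed the filter. Leave-one-out was run for gaster pBB replicate 1 only. Depth limits statements on off values: 3 counts correspond to 0.0388 to 0.1 CPM in a gaster, so 0 counts mean not detectable at this depth rather than absent, and brain levels under 0.1 CPM rest on a few counts.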
